A study of Mus musculus with 8 samples.

Results

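A set of 9 genes at the nuclear end of ERK signaling was followed in primary mouse palate cells given ephrin-B1. They were Elk1, Elk3 and Elk4 (the ternary complex factors), their partner Srf, the Pea3 group genes Etv1, Etv4 and Etv5, and Ets1 and Ets2. Every probe that the platform annotation assigns to one of these symbols was taken, which gave 21 probes for the 9 genes, of 17711 genes with a probe. The cells, called MEP cells, were grown from palatal shelves of E13.5 embryos of the strain CBA;C57BL6 N2 in medium with 10% serum, and were used at passage 1. The induced group received pre-clustered ephrin-B1-Fc at 2 ug/ml for 60 min, and the uninduced group was a control induction for which the labels name no agent. Both groups had 4 Illumina bead arrays, numbered 1 to 4, and each slide carried arrays of both groups: slide 1 those numbered 1, slide 2 those numbered 2, and slide 3 those numbered 3 and 4. The labels do not say whether the replicates were separate cultures or which embryos were pooled, so p-values measure the spread between arrays, which may be technical.

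ETS proteins share a DNA-binding domain that recognizes a short element around GGAA. The ternary complex factors bind such an element beside a CArG box occupied by a dimer of Srf, and phosphorylation by ERK switches them from poor to strong activators of immediate early genes. The Pea3 group genes are themselves induced by FGF and ERK signaling in many embryonic tissues and are widely used as readouts of it, whereas ternary complex factors are controlled mainly through their phosphorylation, which an RNA array does not measure. The genes lie on chromosomes X (Elk1), 10 (Elk3), 1 (Elk4), 17 (Srf), 12 (Etv1), 11 (Etv4), 16 (Etv5 and Ets2) and 9 (Ets1). The comparison asks whether the transcripts of these factors differ after 60 min of signaling by Eph receptors.

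Per array, 15303 to 17362 of the 46632 probes had a detection p under 0.05 and are called above background here. Of the palatal mesenchyme markers, 17 of 19 genes were above background on all 8 arrays, and Pax9 and Tbx22 were above it on none. Of the macrophage and blood cell markers, 6 of 14 genes were above background on all 8 arrays and Ptprc and Cd53 on none, with summed intensities of their tested probes of 974 to 1782 in induced and 1091 to 1664 in uninduced cells. Of the endothelial markers, 3 of 13 genes (Kdr, Eng and Egfl7) were above background on all 8 arrays and 7, with Pecam1 and Cdh5, on none, with summed intensities of 777 to 880 in induced and 730 to 914 in uninduced cells. Of the epithelial markers, 3 of 12 (Krt8, Krt17 and Krt18) were above it on all 8 arrays and 7, with Epcam and Trp63, on none, with sums of 481 to 809 in induced and 488 to 686 in uninduced cells. The part of these cells in the results below was not tested. In RNA from a mixed culture, fewer cells of a type and less RNA per cell cannot be told apart. The number of arrays limits the precision.

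None of the Ets genes or Srf passed the test. A probe entered the fit if it was above background on at least 4 of the 8 arrays, as were 9 of the 21 probes, which covered 8 of the 9 genes. With limma, 0 of these 9 probes were called at an adjusted p under 0.05 over 16514 probes (each adjusted p = 0.9999), where 0.0182% of all tested probes were called, 0.0121% as higher and 0.00606% as lower in induced cells. With the replicate number as a block, 0 of 9 were called against 0.327% of all, 0.0424% higher and 0.285% lower (adjusted p from 0.652 to 0.984). With the slide as a block it was 0 of 9 against 0.0848% of all, 0.0182% higher and 0.0666% lower. Without adjustment, p was under 0.05 at 0 of 9 probes in the fit without a block, in which 1.11% of all probes passed, 0 of 9 with the replicate block, in which 7.76% passed, and 0 of 9 with the slide as a block, in which 4.45% passed. The groups overlapped at each of the 9 probes, as they did at all but 1.01% of the tested probes. The log2 differences, induced minus uninduced, ran from -0.15 to 0.034. Of the 9 probes, 8 had a lower mean in induced cells (median difference -0.093), beside 48.8% of all tested probes (median 0.0028). With the authors' own matrix that count was 7 of 9.

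**Figure D1:**
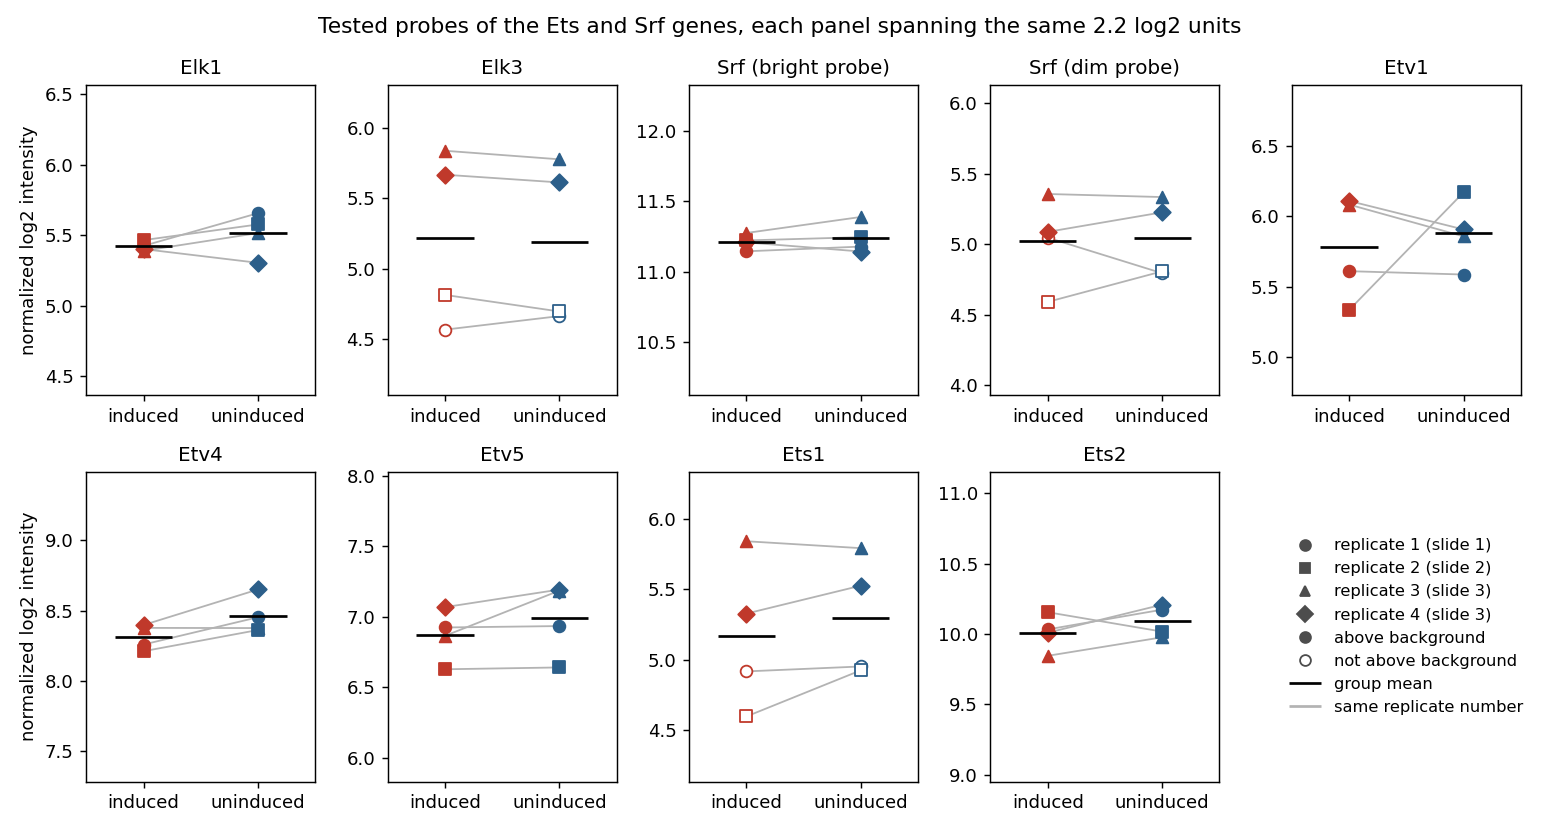
Normalized log2 intensity of the 9 tested probes on each array, induced left of uninduced, with bars for group means and grey lines joining arrays of the same replicate number. Open symbols mark arrays on which a probe was not above background; each panel spans the same range, and the groups overlap in every panel.

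Srf, the MADS-box factor that anchors the ternary complex at CArG boxes, is itself an early response gene in fibroblasts given serum. Its promoter is shown because it carries the elements that the other proteins of this set read. In the RefSeq window of 250 bases before to 50 after its start (GRCm38.p6, chr17:46556113-46556412, minus strand, shown 5′ to 3′ in the direction of transcription), capitals mark 2 CArG boxes, which begin 82 and 62 bases before the start, and an Ets core, CCGGAA, which begins 122 bases before it. A window of Egr2 (GRCm38.p6, chr10:67537316-67537615, plus strand) is set below it. Egr2 was taken as a zinc finger gene of the list of ternary complex factor targets. The Egr2 transcript was also lower in induced cells with the replicate block. Among the Egr2 windows, the window shown was picked for holding both a CArG box and an Ets core. It holds 1 CArG box, 72 bases before the start, and Ets cores on both strands, 2 of which overlap.
Srf: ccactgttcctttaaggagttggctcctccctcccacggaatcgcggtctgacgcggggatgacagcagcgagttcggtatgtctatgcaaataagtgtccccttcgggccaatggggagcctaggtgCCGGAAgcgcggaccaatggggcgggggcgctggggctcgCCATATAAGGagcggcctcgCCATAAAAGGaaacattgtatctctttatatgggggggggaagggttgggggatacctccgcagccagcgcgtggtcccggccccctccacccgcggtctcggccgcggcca
Egr2: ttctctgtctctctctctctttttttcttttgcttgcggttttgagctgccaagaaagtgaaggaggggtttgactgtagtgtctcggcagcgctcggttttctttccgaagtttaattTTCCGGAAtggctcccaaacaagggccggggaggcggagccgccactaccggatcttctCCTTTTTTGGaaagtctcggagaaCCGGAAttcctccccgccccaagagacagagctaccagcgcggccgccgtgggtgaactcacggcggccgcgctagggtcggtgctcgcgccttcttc
Both strands were searched for CCGGAA, and the CArG box reads the same on both. Of 32851 promoter windows in the table, 1.63% held a CArG box, 14.9% an Ets core and 0.183% both, and the Srf window was the 1 window with at least 2 CArG boxes and an Ets core. The table had 11 windows for 7 of the 9 genes. Besides that of Srf, none of them held a CArG box, and 1 other, of Elk4, held CCGGAA. Egr2 had 5 windows, 4 of them with a CArG box, and besides the window shown none held CCGGAA. Those that start at 67537619, 67537620 and 67537680 overlap, so the 4 need not hold separate boxes. A match describes these letters and is no evidence of binding.

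At the bright Srf probe (ILMN_2769688) the 4 induced arrays had normalized log2 intensities of 11.14, 11.22, 11.27 and 11.21, and the 4 uninduced arrays 11.18, 11.24, 11.39 and 11.14 (replicates 1 to 4). The groups overlapped almost completely. Srf averaged 11.21 ± 0.054 in induced and 11.24 ± 0.11 in uninduced cells (SD, n = 4 each). The log2 difference was -0.026 (SE 0.077), with a 95% interval of -0.20 to 0.14. With the replicate block the interval was -0.13 to 0.080. Srf was lower in 3 of 4 pairs of arrays with the same number, by at most 0.11, and higher in the other by 0.065. This was the narrowest interval among the 9 probes. The dim Srf probe (ILMN_1242533) was above background on the 4 arrays of slide 3 and on none of the other 4. It had 5.05, 4.59, 5.36 and 5.09 in induced and 4.79, 4.81, 5.33 and 5.23 in uninduced cells, a difference of -0.020 (SE 0.19).

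Textbook targets of the ternary complex factors, mostly immediate early genes, were listed beside Srf. In that list 0 of 21 tested probes were called without a block. With the replicate block 4 were lower and 0 higher (0.285% and 0.0424% of all tested probes). Of the 21, 17 had a lower mean (16 with the authors' matrix), beside 48.8% of all tested probes. The list was drawn up with earlier results of these arrays known, and 2 of its 21 probes are those of Srf. The 4 were probes of Egr1, Egr2 and Egr3, zinc finger factors induced by ERK, and of Ccn1, a matrix-associated signaling protein. Egr1 averaged 10.59 ± 0.12 in induced and 11.21 ± 0.17 in uninduced cells (SD, n = 4 each), a log2 difference of -0.62 (SE 0.10). Egr2 averaged 7.05 ± 0.22 in induced and 7.86 ± 0.31 in uninduced cells, a difference of -0.81 (SE 0.17), and Egr3 had -0.88 (SE 0.17). None of the 3 passed without a block (limma adjusted p = 0.187, 0.946 and 0.692), and with the replicate block their adjusted p was 0.00042, 0.000288 and 0.000166. Ccn1 had -0.34 (limma adjusted p = 0.0324 with the replicate block). With the slide as a block 2 of the 4 passed, Egr1 and Egr3 (adjusted p = 0.0262 and 0.0228), and Egr2 and Ccn1 did not (0.148 and 0.368). The other tested Egr3 probe gave 0.26 (SE 0.145), and the other Ccn1 probe -0.16 (SE 0.325). That Egr3 probe was near background (means 5.56 in induced and 5.30 in uninduced cells), above it on 4 induced and 2 uninduced arrays. The other 17 tested probes of the list were not called with the replicate block, and the median of the list was -0.096. Fos, at its tested probe, had a difference of 0.022 (SE 0.15), lower in 2 pairs and higher in 2. Of the 23 genes of the list on the array, 6 were above background on no array.

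The log2 difference of the bright Srf probe exceeded that of Egr1 by 0.59, with 0.39 to 0.72 over the 4 pairs. Over all 70 ways to split the 8 arrays into 4 and 4, the exact two-sided permutation test gave p = 0.0286 for Srf against Egr1, the smallest value these splits can give (p = 0.04 adjusted over 7 contrasts). That test ignores the pairing of the arrays. With exact sign flips within the 4 pairs, of which there are 16, p was 0.125 for each of the 7 contrasts described here and for Etv4 and Etv5 further on, the smallest value possible, so the paired test could not reach 0.05. For Srf against Egr2 the excess was 0.78 (0.54 to 0.99 over pairs) and for Srf against Egr3 it was 0.85 (0.55 to 1.19 over pairs), each with an exact p of 0.0571 (0.0571 adjusted), which misses 0.05. The Egr genes were taken with their lower levels already known, so these p-values are no independent support. Srf also serves actin and contractile genes with the MRTF coactivators, and of 33 tested probes of that list 0 were called in any of the 3 fits (replicate block, 0.327% of all in either direction). Their median log2 difference was -0.0039, and 18 of 33 had a lower mean, beside 48.8% of all tested probes. Myh9, a nonmuscle myosin (-0.16, SE 0.080), and Vcl, the adhesion protein vinculin (-0.12, SE 0.073), had the smallest unadjusted p-values without a block, 0.0695 and 0.14. The other Myh9 probe gave 0.18 (SE 0.12).

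**Figure D2:**
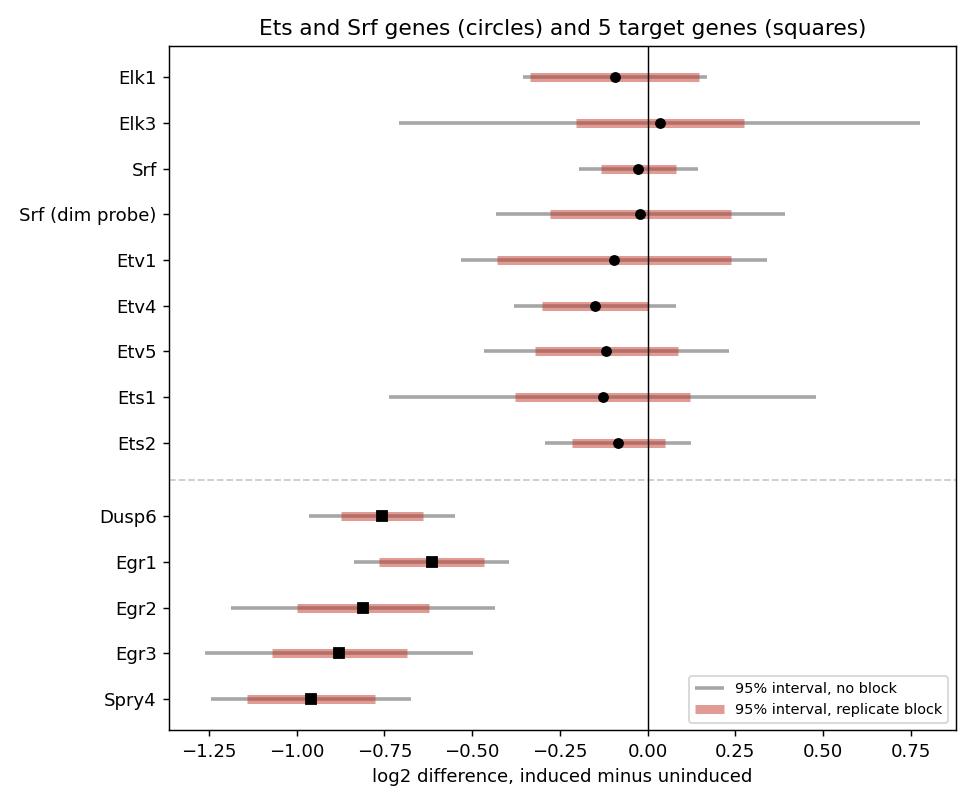
Log2 difference between induced and uninduced cells for the 9 tested probes of the Ets genes and Srf (circles) and, below the dashed line, 5 target genes at their brightest probe (squares), with 95% intervals of the limma fit without a block and with the replicate block. The intervals of the 9 probes include 0 in both fits, while those of Dusp6, Egr1, Egr2, Egr3 and Spry4 lie below 0; these 5 were chosen with their values known.

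Of the ternary complex factors, Elk1 was the only one above background on all 8 arrays, at 1 of its 2 probes. Elk1, the founding member of the group and an ERK substrate, had values at that probe (ILMN_2579964) of 5.42, 5.46, 5.39 and 5.40 in induced and 5.66, 5.58, 5.51 and 5.30 in uninduced cells. Uninduced replicates 1 to 3 lay above all induced values, and uninduced replicate 4 below them. The difference was -0.093 (SE 0.12, interval -0.35 to 0.17), and Elk1 was lower in 3 of 4 pairs. This probe was annotated through a cDNA clone, while the other Elk1 probe (ILMN_2761985) was annotated through the RefSeq transcript. The other probe was above background on induced replicates 3 and 4 alone, where it read 5.14 and 5.11, against 4.73 and 4.89 on the uninduced arrays of the same numbers. The uninduced values are all at background, so no fold is given, and the probe was not tested.

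Elk3, also called Net, is a ternary complex factor that represses until it is phosphorylated. Its tested probe (ILMN_1224644) had values of 4.57, 4.81, 5.84 and 5.67 in induced and 4.66, 4.70, 5.78 and 5.61 in uninduced cells. Within each group, replicates 3 and 4 were high and replicates 1 and 2 were at background. The probe was above background on all 4 arrays of slide 3 and on none of the 4 arrays of slides 1 and 2, and averaged 5.72 on slide 3 and 4.68 on slides 1 and 2. Between the groups the difference was 0.034, with an SE of 0.34 without a block and 0.11 with the replicate block (interval -0.21 to 0.27). The other 3 Elk3 probes were above background on none of the arrays, except that ILMN_1241681 was above it on uninduced replicate 4. All 3 probes of Elk4, also called Sap1, were above background on no array of either group, with normalized log2 intensities of 4.49 to 4.87 in induced cells and at most 4.82 in uninduced cells. These signals set only an upper limit on Elk4 transcript, and no fold is given.

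**Figure D3:**
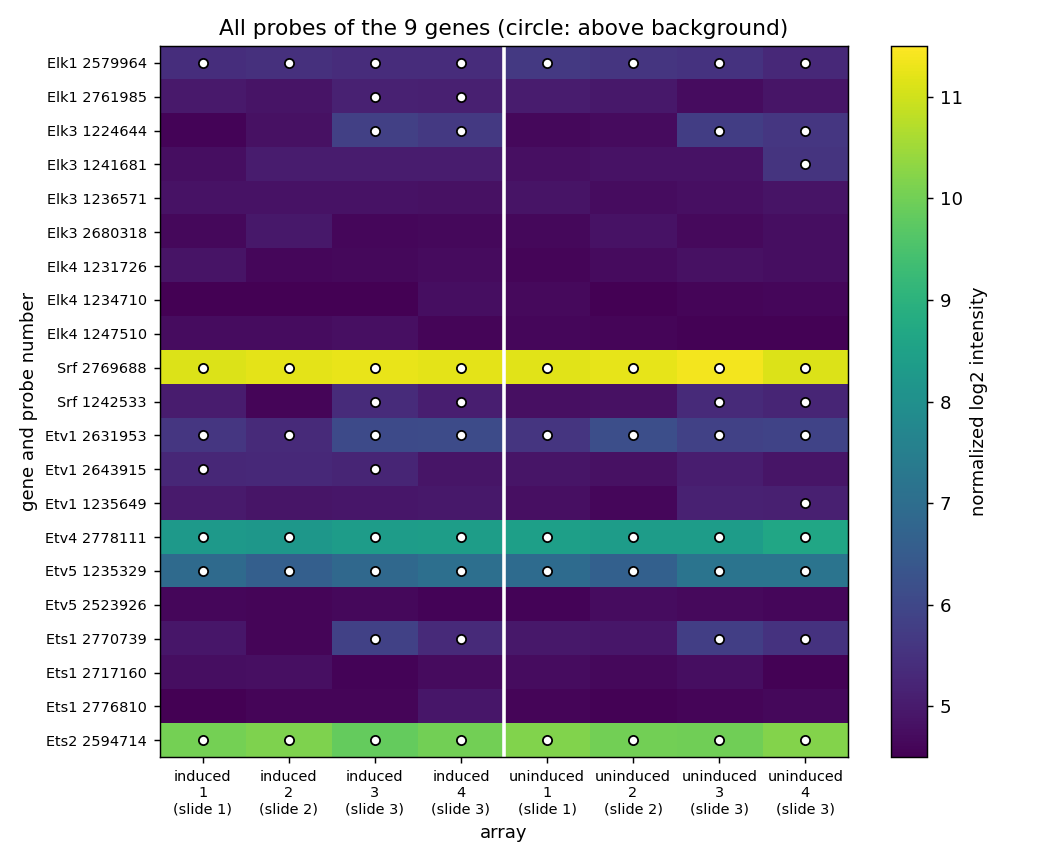
Normalized log2 intensity (colour) of all 21 probes of the 9 genes on the 8 arrays, induced left of uninduced, with a circle where a probe was above background. Of the 21 probes, 6 carry 8 circles and 8 carry none, and the tested probes of Elk3 and Ets1 and the dim Srf probe carry circles on the 4 arrays of slide 3.

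The Pea3 group was present at 1 probe each for Etv1, Etv4 and Etv5. Etv4, the gene of the Pea3 protein, had values of 8.26, 8.21, 8.38 and 8.40 in induced and 8.45, 8.36, 8.38 and 8.65 in uninduced cells at its single probe (ILMN_2778111). The uninduced values were the higher ones in replicates 1, 2 and 4, and the 2 arrays of replicate 3 were level. Etv4 averaged 8.31 ± 0.090 in induced and 8.46 ± 0.13 in uninduced cells (SD, n = 4 each), and its difference of -0.15 (SE 0.10, interval -0.38 to 0.082) had the smallest unadjusted p of the 9 probes in limma, 0.183. With the replicate block the SE was 0.070, the unadjusted limma p 0.0527 and the adjusted p 0.652, with an interval of -0.30 to 0.0020. Etv5 (also called Erm) had values at its tested probe (ILMN_1235329) of 6.92, 6.63, 6.87 and 7.07 in induced and 6.93, 6.64, 7.19 and 7.19 in uninduced cells. The differences within pairs were -0.010, -0.013, -0.32 and -0.12 (replicates 1 to 4). Etv5 was the 1 probe of the 9 that was lower in 4 of 4 pairs, as were 7.49% of all tested probes, and 0 of 9 were higher in 4 of 4, as were 7.87%. It had a difference of -0.12 (SE 0.16, interval -0.47 to 0.23). A second Etv5 probe was above background on no array.

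Etv1, also called Er81, had values at its tested probe (ILMN_2631953) of 5.61, 5.33, 6.08 and 6.11 in induced and 5.59, 6.17, 5.86 and 5.91 in uninduced cells. The differences within pairs were 0.024, -0.84, 0.23 and 0.20 (replicates 1 to 4), so replicate 2 alone was lower in induced cells. The difference was -0.096 (SE 0.20, interval -0.53 to 0.34), and without replicate 2 in the fit with the replicate block it was 0.15 (SE 0.11). The other 2 Etv1 probes were near background. ILMN_2643915 was above it on induced replicates 1 and 3 and on no uninduced array, with 5.27, 5.31, 5.22 and 4.91 in induced and 4.91, 4.82, 5.06 and 4.88 in uninduced cells. ILMN_1235649 was above it on uninduced replicate 4 alone. For both of these probes, the group with an array above background had a mean no higher than the detection floor of the other group. No fold is therefore given. Neither was tested.

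Etv4 and Etv5 were set beside the feedback inhibitors that they are known to accompany under FGF signaling. Of 15 tested probes of that list, which includes the 3 Pea3 group probes, 1 was lower without a block (0.00606% of all probes), and 2 passed as lower in the fit with replicates paired (0.285%). Dusp6, a phosphatase of ERK, averaged 10.08 ± 0.14 in induced and 10.84 ± 0.11 in uninduced cells (SD, n = 4 each, log2 difference -0.76, limma adjusted p = 0.0405). Spry4, a Sprouty inhibitor of receptor tyrosine kinase signaling, averaged 6.91 ± 0.12 in induced and 7.87 ± 0.19 in uninduced cells. Its difference was -0.96, and it passed with the replicate block but not in the fit over all probes without one (limma adjusted p = 0.063). The other Dusp6 probe gave -0.29 (SE 0.285) and was above background on 2 induced and 2 uninduced arrays. With the replicate block 13 of the 15 probes were not called. The median of the list was -0.044, and 11 of 15 had a lower mean, beside 48.8% of all tested probes. Other inhibitors of the list lay near 0, Il17rd with -0.044 and 0.0025 and Spred1 with 0.018 and -0.0045 at their tested probes. The difference of Etv4 was closer to 0 than that of Spry4 by 0.81 (0.63 to 1.01 over pairs) and than that of Dusp6 by 0.61 (0.50 to 0.74). For Etv5 the same gaps were 0.84 (0.69 to 0.96) and 0.64 (0.33 to 0.88). Each of the 4 gaps had an exact permutation p of 0.0286 over the unpaired splits (0.04 adjusted over the 7 contrasts) and of 0.125 with sign flips within pairs, which misses 0.05. Spry4 and Dusp6 were taken with their fall already known, so these p-values are no independent support either.

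Ets1 and Ets2 are related ERK substrates that activate protease and growth genes. Ets2 (ILMN_2594714) had values of 10.03, 10.15, 9.85 and 10.01 in induced and 10.17, 10.02, 9.98 and 10.21 in uninduced cells. It was lower in replicates 1, 3 and 4 by 0.13 to 0.20 and higher in replicate 2 by 0.14. The difference was -0.083 (SE 0.094, interval -0.29 to 0.12). Ets1, at its tested probe (ILMN_2770739), had 4.92, 4.60, 5.84 and 5.33 in induced and 4.95, 4.93, 5.79 and 5.53 in uninduced cells. As for Elk3, this probe was above background on the 4 arrays of slide 3 alone, and averaged 5.62 on slide 3 and 4.85 on slides 1 and 2. The difference between groups was -0.13, with an SE of 0.28 without a block and 0.12 with the replicate block. The other 2 Ets1 probes were above background on no array. The tested probes of Elk3 and Ets1 and the dim Srf probe entered the fit only through their 4 slide 3 arrays, so the filter itself selected them for a high signal there. Slide 3 held replicates 3 and 4, so slide and replicate cannot be told apart there, and slide 3 arrays also had more probes above background, 16699 to 17362 against 15303 to 15790.

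Of 25 tested probes of textbook Ets targets, 0 were called without a block, pairing by replicate number gave 2 lower ones (0.285% of all probes), and with the slide as a block there were 0. They were Myc, a growth-promoting factor (-0.70, SE 0.22 without a block, limma adjusted p = 0.0213 with the replicate block and 0.148 with the slide block), and Lif, a cytokine of the interleukin-6 family (-0.47, SE 0.13, limma adjusted p = 0.0378 with the replicate block and 0.229 with the slide block). The median of the list was -0.037, and 17 of 25 had a lower mean, beside 48.8% of all tested probes. The 17 include several probes of Ccnd1 (-0.021 to -0.18), so they are not separate genes.

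The other ETS-domain genes were not called either, at 0 of 12 tested probes in any of the 3 fits. Their median difference was 0.028, with 6 lower and 6 higher means. The smallest unadjusted p-values without a block were those of 2 Ets repressors. Erf, which ERK removes from the nucleus, had 5.50 ± 0.24 in induced and 5.19 ± 0.17 in uninduced cells (SD, n = 4 each) at 1 probe. That probe was above background on 4 induced arrays and 1 uninduced array, so it met the filter through the group in which it was higher. The other Erf probe, above background on all 8, had a difference of -0.020 (SE 0.14). Etv3 had -0.35 (SE 0.18) and was lower in every pair. Neither passed with the replicate block (limma adjusted p = 0.609 for Erf and 0.516 for Etv3). Of the 17 genes, 9, among them Erg, Elf3, Elf5 and Ehf, were above background on no array, and 8, among them Spi1 and Fli1, on all 8. Srf cofactors and partners gave 0 of 16 and the MAP kinases and other genes upstream 0 of 16 in the same fits, with medians of -0.021 and -0.00037. The smallest unadjusted p-values without a block were there those of Sin3a, a corepressor scaffold (-0.14, SE 0.086), and Med23, a Mediator subunit that binds Elk1 (-0.16, SE 0.12), and of Araf, a Raf kinase (0.13, SE 0.12), and Ppp3ca, a calcineurin subunit (-0.077, SE 0.10).

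**Figure D4:**
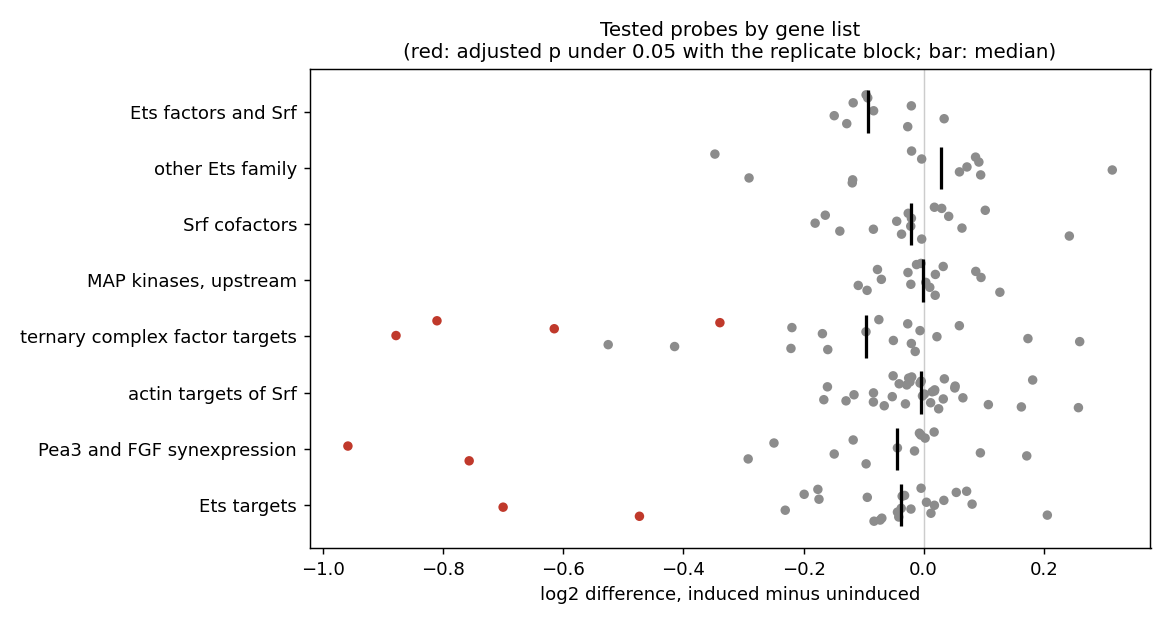
Log2 differences between induced and uninduced cells for the tested probes of each gene list, with a bar at the median and red points for probes with an adjusted p under 0.05 in the fit with the replicate block. The red points lie in the lists of ternary complex factor targets, of Pea3 and FGF synexpression genes and of Ets targets, all below 0.

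Over the 8 arrays the probes most like that of Etv4, which had the smallest p of the 9 with and without the replicate block, were those of Adamts1 (Pearson r = 0.937), Ehbp1l1 (0.933) and Bbx (0.930), among 12860 probes of other named genes. These correlations describe arrays that share slides and replicate numbers, and were not tested. The 3 genes had log2 differences of -0.12, -0.21 and -0.24, and none was called (adjusted p = 0.9999 each).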

How the data were processed

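Total RNA of 4 induced and 4 uninduced arrays was hybridised as biotinylated cRNA. Per the file headers, the deposited intensity values are the average bead signal per probe, not normalized, exported with GenomeStudio 1.6.0 according to the submitters' processing notes. The deposited detection p-values compare each probe with background on its array. The authors' matrix, a linear intensity that by its values is background-subtracted and set to one median per array by steps the sources used here do not state, was an alternative. A planned comparison of ETS domain sequences was not made. For the array data, no genome build is given in the sources used here.

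Signals were corrected and quantile normalized with neqc-type steps of limma 3.58.1 (R 4.3.3), with controls inferred from detection p, an offset of 16 and log2. The 11 repeated identifiers were averaged, leaving 46632 probes: 29976 with 1 gene name, 10 with several and 16646 with none. The 16514 probes detected (p under 0.05) on 4 or more arrays were fitted with lmFit and eBayes with a variance trend, two-sided, with Benjamini-Hochberg over all of them. Tests were checked on simulated data. Blocks for replicate number and slide, other normalizations, filters, probe summaries and leaving out arrays were alternatives. Same-numbered arrays deviated together from their group means (correlations across probes of 0.608, 0.617, 0.730 and 0.651). Other combinations of an induced and an uninduced array gave -0.576 to 0.380. The numbers were therefore treated as pairs. Slides 1 and 2 each held a single number, so number and slide cannot be told apart for replicates 1 and 2. Named were all 9 genes, and from each other list the genes called in any of the 3 fits (at most 4 by p with the replicate block) or else the 2 with the smallest p. Fos, Il17rd, Spred1, Spi1 and Fli1 were added after seeing the data. Sign flips within pairs were added for the contrasts after seeing the data. The genes, lists and contrasts were chosen with earlier results of these data known. Promoters are from RefSeq (GRCm38.p6).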

Additional observations from a re-analysis of the deposited data

Results flagged for a closer look

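In 42 sets of 4 arrays, made of 21 probes in 2 groups, 4 had 1 array far from the other 3 by Dixon's criterion, which chance gives in about 1 of 20 sets. All 4 belonged to probes that were not tested because they were near background. Elk3 probe ILMN_1241681 read 4.75 on induced replicate 1, with 5.02 to 5.04 on the other induced arrays, and 5.55 on uninduced replicate 4, with 4.78 to 4.85 on the other uninduced arrays. Uninduced replicate 4 was the only array on which that probe was above background. Elk3 probe ILMN_2680318 read 4.96 on induced replicate 2, with 4.63 to 4.66 on the others, and Elk4 probe ILMN_1234710 read 4.76 on induced replicate 4, with 4.49 to 4.51 on the others.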

How the results depend on the processing

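Among the 9 tested probes, 0 were called in the fit without a block and in all 25 alternatives run. The lowest adjusted p of any of the 9 was 0.528 (limma). The probes of these genes that did not meet the main filter were not counted in any alternative, also not in the fit without a filter. With detection p under 0.01 on all 8 arrays, only the Etv4, Etv5, Ets2 and bright Srf probes of the 9 were tested. Etv4, Etv5, Ets2 and Elk1 kept a lower mean in induced cells in every alternative that tested them (-0.20 to -0.09, -0.23 to -0.012, -0.17 to -0.0012 and -0.17 to -0.014). With all 8 arrays, the blocks, the filters and the variance trend leave the difference of a probe unchanged, so those settings could not turn a sign. The remaining alternatives reuse the same arrays. The signs of Etv1, Ets1, Elk3 and both Srf probes turned in some alternatives. With the replicate block Etv1 was 0.15 without replicate 2, the dim Srf probe 0.045 without replicate 2 and 0.019 without replicate 4, and the bright Srf probe 0.0026 without replicate 3. Etv1 was 0.21 on slide 3 alone, and the dim Srf probe was 0.018 on slides 1 and 2 alone and 0.016 with the authors' matrix. Leaving out 1 array gave ranges of -0.20 to 0.054 for Etv1, -0.35 to 0.063 for Ets1, -0.17 to 0.25 for Elk3, -0.13 to 0.12 for the dim Srf probe and -0.058 to 0.023 for the bright one.

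Over all probes, 3 were called without a block, 54 with the replicate block (28, 22, 40 and 23 without replicate 1, 2, 3 or 4), 14 with the slide as a block, 1 with an offset of 50, 1 without a variance trend, 0 with detection p under 0.01 on all 8 arrays, 0 on slide 3 alone and 1 to 3 without 1 array. The replicate block changed no call of an Ets or Srf probe. The causes were not tested. Ets1, Elk3, Elk1, Etv1 and the dim Srf probe were near background, so a difference there is less certain than at the bright Srf, Ets2, Etv4 and Etv5 probes.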
